A study of Homo sapiens with 6 samples.

Results

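The 41 genes described here encode subunits of the respiratory chain and ATP synthase that are made from the nuclear genome. They were taken by name, and each symbol was matched through GENCODE 29 to a gene ID in the deposited values. The rule for membership used no measured level, although it was drawn up with earlier results of these data known. All 41 had a row among the 25969 genes listed: 14 subunits of complex I, 4 of complex II, 5 of complex III, 11 of complex IV and 7 of complex V. The samples were 6 bulk RNA sequencing libraries of cells labelled LNCaP, an established line of human prostate cancer cells. In 3 libraries the cells had received a vector for overexpression of VIM-AS1, an antisense transcript of the vimentin locus, and in 3 the pcDNA3.1 plasmid, the control. No other treatment, dose or time was given in the labels. The comparison asks how RNA of these subunits differed between cells with the VIM-AS1 vector and cells with the empty plasmid.

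Oxidative phosphorylation makes most of the ATP of a respiring cell on the inner mitochondrial membrane. Complexes I and II take electrons from NADH and succinate and pass them to ubiquinone. Complex III passes them on to cytochrome c, and complex IV, cytochrome c oxidase, passes them to oxygen. Complexes I, III and IV pump protons, and complex V, the ATP synthase, lets the protons flow back and makes ATP. A few hydrophobic subunits of complexes I, III, IV and V are encoded by the mitochondrial genome, and every subunit of complex II is nuclear. The transcription factors NRF1 and GABP (an ETS family factor), the estrogen-related receptors (ERR) and YY1 are textbook regulators of the nuclear subunit genes.

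The words bound by these factors were searched in the promoters, since they are a sequence feature that the subunit genes may share and the choice of genes did not use. RefSeq promoters on GRCh38.p14, running from 250 bases before to 50 bases after the transcription start, matched 34 of the 41 genes. Both strands were searched for a pair of NRF1 words of 10 bases, which stand in capitals in ATP5F1C and (reverse complement of the other form) in ATP5PO below, and for CCGGAAGT (ETS), TCAAGGTCA (ERR) and AAGATGGCG (YY1). None of these words lies inside another. At least 1 word was found in 12 of the 34 promoters (35.3%), against 8.98% of all 27305 promoters and 19.0% of the 7616 promoters of genes with a mean of at least 100 normalized reads here. The NRF1 words were in 3 promoters (8.82%), against 2.96% of all promoters and 6.09% of those with a mean of at least 100. The ETS word was in 6 (17.6%; 4.44% and 9.74%), the YY1 word in 4 (11.8%; 1.85% and 4.56%) and the ERR word in 1 (2.94%; 0.359% and 0.171%). A match is a description of these letters and not a measured binding site.

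The 120 bases before the start are shown for 7 genes: 3 with an NRF1 word, 2 with an ETS word only, and 2 whose levels did not overlap between the groups and which held no word. Sequences run 5′ to 3′ along the gene's own strand, and capitals mark a searched word or its reverse complement.
SDHD (chr11:112086753-112086872, plus strand): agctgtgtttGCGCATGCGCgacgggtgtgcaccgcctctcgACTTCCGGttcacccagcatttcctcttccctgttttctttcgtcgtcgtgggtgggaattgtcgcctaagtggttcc
ATP5F1C (chr10:7788057-7788176, plus strand): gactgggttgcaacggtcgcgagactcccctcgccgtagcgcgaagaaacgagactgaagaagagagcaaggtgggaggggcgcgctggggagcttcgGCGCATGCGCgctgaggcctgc
ATP5PO (chr21:33915805-33915924, minus strand): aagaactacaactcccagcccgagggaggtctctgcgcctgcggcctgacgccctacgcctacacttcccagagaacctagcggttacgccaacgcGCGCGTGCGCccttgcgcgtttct
COX8A (chr11:63974500-63974619, plus strand): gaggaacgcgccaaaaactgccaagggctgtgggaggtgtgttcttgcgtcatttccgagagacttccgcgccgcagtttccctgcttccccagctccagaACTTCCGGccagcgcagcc
UQCRQ (chr5:132866522-132866641, plus strand): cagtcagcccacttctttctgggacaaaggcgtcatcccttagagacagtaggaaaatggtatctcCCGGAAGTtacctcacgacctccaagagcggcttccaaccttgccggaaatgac
ATP5F1A (chr18:46104228-46104347, minus strand): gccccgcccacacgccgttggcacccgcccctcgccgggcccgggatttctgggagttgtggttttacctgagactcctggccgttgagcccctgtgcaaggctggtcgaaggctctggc
COX7B (chrX:77899348-77899467, plus strand): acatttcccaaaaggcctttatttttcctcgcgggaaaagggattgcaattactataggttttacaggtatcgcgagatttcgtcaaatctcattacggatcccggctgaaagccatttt
SDHD, a membrane anchor of complex II, was the member with words of 3 factors. Its NRF1 word began 110 bases before the start and its ETS word, read on the other strand, 78 bases before it, while an ERR word lay after the start and outside the stretch shown. In ATP5F1C and ATP5PO the NRF1 word began 22 and 24 bases before the start. The YY1 words of NDUFA6, NDUFA9, SDHB and UQCRC1 all began after the start.

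Recovered reads per library ran from 14762893 to 19889745. The labels do not tie replicates to separate cultures, and the spread that p-values rest on may thus be technical. VIM-AS1 itself had 2197, 2019 and 2763 normalized reads in VIM-AS1 libraries 1 to 3, and 8.63, 1.22 and 5.53 in control libraries 1 to 3, from 9, 1 and 7 reads. Of 9 luminal prostate markers 7 were listed, and KRT8, KRT18 and HOXB13 were among those detected in every library. KLK3 had 2 reads in control library 1 and 0 in the other 5 libraries, and FOLH1 had 4 and 2 reads in control libraries 1 and 2 and 0 in the rest, although LNCaP cells are known for both. The cells are therefore called cells labelled LNCaP. Across all genes, library 3 of both groups differed from libraries 1 and 2. Every comparison was therefore fitted without and with a term for replicate 3, which was chosen from these data. In bulk RNA, fewer cells of a type and less RNA per cell cannot be told apart.

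Taken as a set, the 41 genes lay close to no difference between the groups. Their median log2 fold change, VIM-AS1 against control, was 0.02, against -0.02 over the 20927 genes tested and 0.11 over the 9758 of them with a mean of at least 100 normalized reads. Of the 41, 23 had a positive fold change (48.0% of all tested genes did). Among genes with a mean of at least 100, 21 of 39 members did, and 6115 of all 9758. By complex the medians were 0.02 for complex I, 0.20 for complex II, 0.20 for complex III, -0.11 for complex IV and 0.08 for complex V. The 4 complex II genes all had positive fold changes, and 3 of the 11 complex IV genes did. Scaling by library size in place of the deposited factors moved the median of all tested genes by -0.06 and put those of the 41 and of complex I at -0.036 and -0.042. Scaling by library size without the mitochondrially encoded genes moved all genes by -0.14 and put the 41 at -0.12, complex I at -0.12, complex V at -0.060 and SDHB at -0.048. Under TMM and both of these scalings the medians of complexes II and III were above 0 and that of complex IV was below 0. Leaving out 1 library at a time kept complexes II and III above 0 but not the others on 1 side. Without control library 1 the median of complex IV was 0.016, with 6 of 11 estimates positive, and that of the 41 was 0.14. When 1 replicate 3 library is left out, the replicate 3 term fits the other exactly. Only libraries 1 and 2 of each group are then compared. The estimates without either replicate 3 library, or without both, were thus the same by design. With the term these omissions are not separate checks, here or below. The medians were -0.040 for the 41, -0.027 for complex I, -0.30 for complex IV and -0.0095 for complex V. Complex I was at -0.10 without control library 2. Of the 41 estimates 17 changed sign when at least 1 library was left out. These medians describe the list and were not tested.

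Without the replicate 3 term 0 of the 41 genes passed the test (limma on log2(normalized reads + 1), Benjamini-Hochberg adjusted p under 0.05), and the lowest adjusted p was 0.413. None had an unadjusted p under 0.05, and edgeR and DESeq2 on the recovered reads called 0 as well. Over all genes limma called 0.0239%, edgeR 0.0191% and DESeq2 1.69%, and 13.6% had an unadjusted p under 0.05 in limma. With the term 2 of the 41 passed: CYC1 rose and COX6C fell, while 19.4% of all tested genes passed (11.5% higher and 7.94% lower) and 32.0% of those with a mean of at least 100. Scaled by library size with the term, 3 rose and 2 fell (15.3% of all genes passed), and scaled by library size without the mitochondrially encoded genes 1 rose and 5 fell (16.9% passed; limma). With the replicate number as a block instead, 10 of the 41 passed, 6 higher (SDHC, CYC1, UQCRC2, ATP5F1A, ATP5F1B, ATP5PB) and 4 lower (UQCRQ, COX4I1, COX6C, COX7B), where 26.6% of all genes passed (limma). Without both replicate 3 libraries 0 passed, where 5.31% of all genes did.

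**Figure D1:**
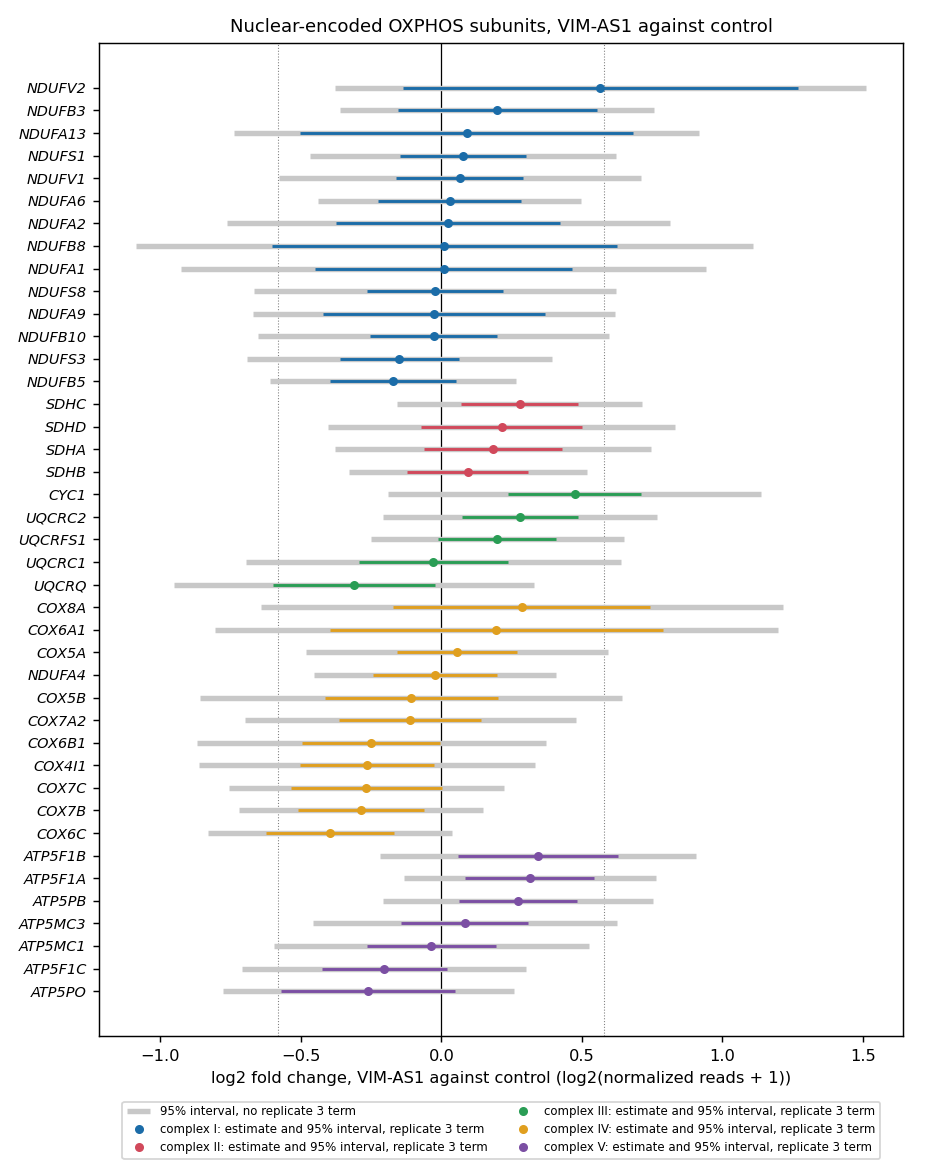
Log2 fold change of each of the 41 subunit genes, VIM-AS1 against control (horizontal axis, on the log2(normalized reads + 1) scale), ordered by complex. Points and coloured bars are the estimate and its 95% interval with the replicate 3 term, grey bars the interval without it, and dotted lines mark 1.5-fold. The coloured intervals of CYC1 and COX6C leave out 0 on opposite sides, and the coloured interval of NDUFV2 is the widest of the coloured ones.

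The intervals say how large a change the data still allow. Without the term the 95% interval of 36 of the 41 genes lay within 2-fold of no change and that of 3 within 1.5-fold, against 37.3% and 3.81% of all tested genes, and 70.4% and 8.18% of those with a mean of at least 100. With the term 40 lay within 2-fold and 32 within 1.5-fold, against 52.5% and 28.8% of all tested genes, and against 93.3% and 58.8% of those with a mean of at least 100. The exception at 2-fold was NDUFV2, the gene with the fewest reads. With the term the intervals of 11 of the 41 genes left out 0, against 30.9% of all tested genes and 45.7% of those with a mean of at least 100. The 32 became 18 without VIM-AS1 library 3, 19 without control library 3 and 19 without both. In the fit without the term the intervals of most members thus still allowed a change of 1.5-fold. The intervals are not adjusted for the number of genes, so they do not give the smallest change that the adjusted test could call.

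Complex III held the gene with the clearest rise. CYC1 (ENSG00000179091, chr8:144095027-144097525 on hg38) encodes cytochrome c1, the subunit that hands electrons to cytochrome c. Its normalized reads were 8925, 10799.8 and 6086 in VIM-AS1 libraries 1 to 3 and 7023, 7669.8 and 4062 in control libraries 1 to 3. The groups overlapped, because library 3 was the lowest of both groups, but each VIM-AS1 library was above the control library of the same number. With the replicate 3 term the log2 fold change of CYC1 was 0.47 ± 0.11 (SE), with an interval of 0.24 to 0.71 and a limma adjusted p of 0.0056, and without it the adjusted p was 0.535. The call with the term was lost without VIM-AS1 library 2 (limma adjusted p 0.072), VIM-AS1 library 3 (0.185), control library 3 (0.169) or both replicate 3 libraries (0.153). The fold changes then ran from 0.41 to 0.42. The omissions of replicate 3 libraries are the same comparison of libraries 1 and 2 of each group, not separate losses.

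The other complex III genes went different ways. UQCRC2, a core protein of the complex with no redox centre, had 1790.0, 1796 and 2342 normalized reads in the VIM-AS1 libraries and 1394, 1519.8 and 1979 in the control libraries. Here library 3 was the highest of each group, and the log2 fold change was 0.28 ± 0.10 (limma adjusted p 0.0517 with the term, 0.00704 with the replicate block). UQCRFS1, the Rieske iron-sulfur protein, had a fold change of 0.20 with an interval of -0.01 to 0.41. For UQCRC1, the partner of UQCRC2, the estimate was -0.03, with an interval of -0.29 to 0.24. UQCRQ, a small subunit, had the lowest value of the complex at -0.31, with 4406, 4862 and 3484 normalized reads against 7847, 5143 and 3529.8. Control library 1 was the highest of the 6 for UQCRQ, and the other 5 libraries ran from 3484 to 5143. Without control library 1 the estimate of UQCRQ was -0.095, and that of UQCRC1, -0.12, was the lowest of the complex.

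Complex IV held the clearest fall. Its catalytic core is mitochondrially encoded, so the 11 nuclear genes encode the subunits around that core. COX6C (ENSG00000164919, chr8:99873200-99894062) had 1587, 1532 and 1773 normalized reads in the VIM-AS1 libraries and 2400.0, 2063 and 1983 in the control libraries, and the groups did not overlap. Its log2 fold change was -0.40 ± 0.11 (SE), with an interval of -0.62 to -0.17 and a limma adjusted p of 0.0136 with the term and 0.413 without it. The call was lost without VIM-AS1 library 1 (adjusted p 0.0704), 2 (0.104) or 3 (0.0919), control library 3 (0.0753) or both replicate 3 libraries (0.0542; limma). The fold changes under these omissions ran from -0.51 to -0.35. Those without replicate 3 libraries are again the same comparison of libraries 1 and 2.

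COX7B (ENSG00000131174, chrX:77899438-77907373) was the other complex IV gene whose groups did not overlap. Its normalized reads were 1883, 2282 and 2143 with VIM-AS1 and 2691, 2339.6 and 2655 in the control. The fold change was -0.29 ± 0.11 (limma adjusted p 0.0684 with the term and 0.013 with the replicate block). COX4I1, the largest nuclear subunit of the complex, had 10319, 11608 and 7564 normalized reads against 13505, 13666 and 8487. Each VIM-AS1 library was below the control library of the same number, and the fold change was -0.26 ± 0.11 (limma adjusted p 0.119, with the block 0.0181). COX6B1 and COX7C had similar estimates of -0.25 and -0.27, with intervals of -0.49 to -0.00 and -0.54 to 0.00. Without control library 1 they were -0.14 and -0.093. COX7A2 and COX5B lay at -0.11 and -0.11, and NDUFA4, a subunit once assigned to complex I, at -0.02, and all of these were positive without control library 1 (0.016, 0.13 and 0.038). Positive estimates came from COX5A at 0.06, COX6A1 at 0.20 and COX8A at 0.29. Without both replicate 3 libraries COX6A1 and COX8A were at -0.43 and -0.14.

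**Figure D2:**
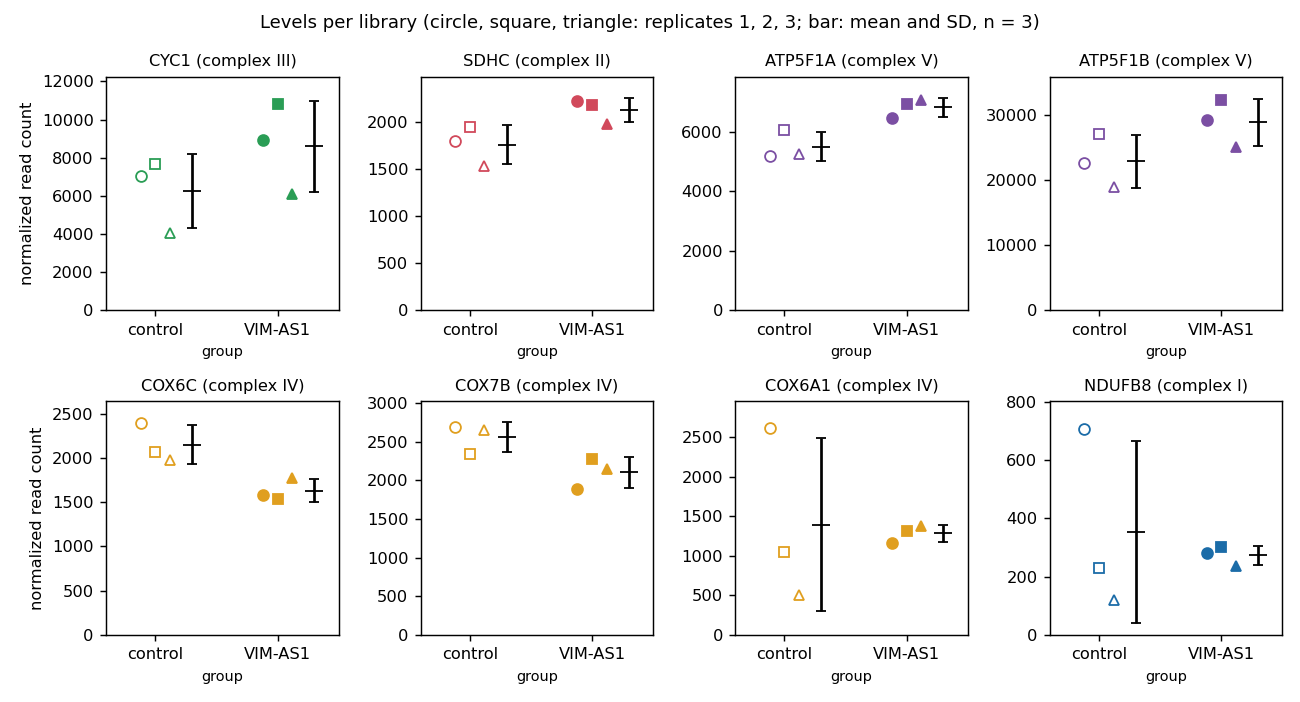
Normalized read count (vertical axes, from 0) of 8 subunit genes in each library, control in open and VIM-AS1 in filled symbols, with circle, square and triangle for replicates 1, 2 and 3 and a bar for the mean and SD of the 3 libraries. CYC1 overlaps between the groups while SDHC, ATP5F1A, COX6C and COX7B do not, and control replicate 1 stands far above the other control libraries for COX6A1 and NDUFB8.

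Complex II, succinate dehydrogenase, also works in the citric acid cycle. SDHC (ENSG00000143252, chr1:161314257-161375340), a membrane anchor, had 2212, 2179.9 and 1974 normalized reads in the VIM-AS1 libraries and 1789.9, 1941 and 1534 in the control libraries, without overlap. Its log2 fold change was 0.28 ± 0.10 (limma adjusted p 0.0551 with the term and 0.00802 with the replicate block). The estimates for SDHD, the other anchor, SDHA, the flavoprotein that oxidizes succinate, and SDHB, the iron-sulfur subunit, were 0.21, 0.19 and 0.09. Their intervals were -0.07 to 0.50, -0.06 to 0.43 and -0.12 to 0.31. SDHC, SDHD and SDHA were higher in VIM-AS1 in all 3 same-numbered pairs of libraries.

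In complex V the estimates of the F1 head and of the peripheral stalk ran in both directions. ATP5F1A (ENSG00000152234, chr18:46080248-46104334), the alpha subunit of the F1 head, had 6478, 6950.4 and 7084 normalized reads with VIM-AS1 and 5178, 6082 and 5269.8 in the control, without overlap. Its log2 fold change was 0.31 ± 0.11 (limma adjusted p 0.0505 with the term, just above the threshold, and 0.00358 with the replicate block). ATP5F1B, the catalytic beta subunit, had 29214, 32304 and 25146 normalized reads against 22602, 27103 and 18953, and overlapped only through VIM-AS1 library 3. The fold change of ATP5F1B was 0.34 ± 0.14 (limma adjusted p 0.0875, with the block 0.00649). ATP5F1C, the gamma subunit that turns inside that head, had an estimate of opposite sign, -0.20, with an interval of -0.43 to 0.02.

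The stalk and ring genes of complex V were spread around 0. ATP5PB, the b subunit of the peripheral stalk, had 2504, 2422 and 3447 normalized reads against 2180.3, 2111 and 2572, with each VIM-AS1 library above the control library of the same number. Its fold change was 0.27 ± 0.10 (limma adjusted p 0.0635, with the block 0.00953). ATP5PO, which joins that stalk to the head, had the lowest value of the complex at -0.26, with 458, 506 and 544 normalized reads against 806, 511 and 528. The control value of ATP5PO was high in library 1 alone, and without that library the estimate was -0.029. ATP5MC1 and ATP5MC3, which encode the same mature protein of the c ring, had estimates of -0.04 and 0.08, both with intervals that held 0.

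In complex I 0 of 14 genes passed in either fit, and every interval held 0. The 5 core subunits belong to the arm that takes up electrons from NADH. Their estimates were NDUFV2 at 0.57, NDUFS1 at 0.08, NDUFV1 at 0.07, NDUFS8 at -0.02 and NDUFS3 at -0.15 on the log2 scale. NDUFV1, the subunit that binds NADH, had 6286, 6732 and 4329.6 normalized reads with VIM-AS1 and 6728, 6648 and 3572 in the control. Library 3 was the lowest of both groups by a wide margin, and the group means differed by less than their spread. NDUFV2 had the largest estimate but only 25.3, 24.5 and 50.1 normalized reads against 13.4, 23.2 and 29.2, and 168 reads over the 6 libraries. Its interval was -0.14 to 1.27.

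The 9 accessory subunits of complex I had estimates from -0.17 (NDUFB5) to 0.20 (NDUFB3). NDUFB5 had 655, 653 and 708 normalized reads against 765, 676 and 837, and NDUFB3 had 329, 226 and 295 against 314, 210.1 and 219.6. NDUFA6, NDUFA2, NDUFB8, NDUFA1, NDUFA9 and NDUFB10 lay between -0.03 and 0.03, and NDUFA13 lay at 0.09. These small averages hid a wide spread in the control group: NDUFB8 had 709.8, 228 and 120.1 normalized reads in control libraries 1 to 3 and 281, 302 and 235 in the VIM-AS1 libraries. For NDUFA1 the control values were 2230.2, 1007 and 509 and the VIM-AS1 values 1113, 1213 and 863.

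Summed over members, complex V took 0.261, 0.268 and 0.293% of the recovered reads in VIM-AS1 libraries 1 to 3 and 0.239, 0.234 and 0.246% in control libraries 1 to 3, without overlap. Complex II took 0.097, 0.096 and 0.097% against 0.091, 0.089 and 0.085%, also without overlap. Summed as normalized reads, both complexes overlapped between the groups. Complex V then had 47614, 52323 and 44243 against 40921, 45773 and 34908. Complex II had 17770.5, 18665 and 14631 against 15598, 17392 and 12038. ATP5F1B and SDHA held more of these reads than any other member of their complex. Complex IV took 0.225, 0.235 and 0.233% against 0.346, 0.244 and 0.234%, where control library 1 stood far above the rest and VIM-AS1 library 2 was above control library 3. The shares of complexes I and III overlapped between the groups. A share of reads falls when other transcripts take more, and the mitochondrial transcripts took a larger share in the control libraries.

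**Figure D3:**
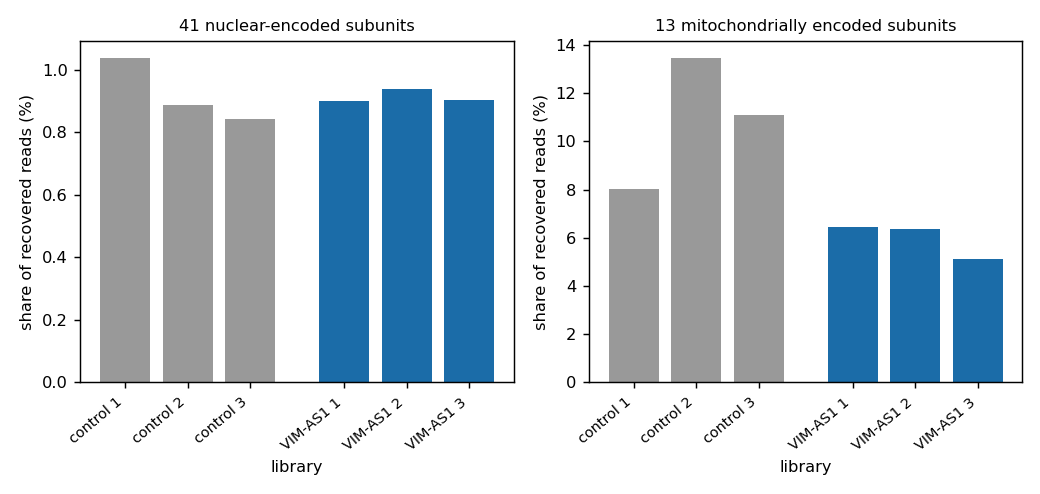
Share of recovered reads (vertical axes, percent, from 0) of the 41 nuclear-encoded subunit genes and of the 13 mitochondrially encoded ones, 1 bar per library. The nuclear shares run from 0.840 to 1.04% and overlap between the groups, while the mitochondrial shares lie between 5.10 and 6.44% with VIM-AS1 and between 8.04 and 13.5% in the control.

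The mitochondrial genome encodes 13 further subunits of the same complexes. With the term 10 of the 13 fell and 0 rose (limma, 19.4% of all genes called and 32.0% of those with a mean of at least 100). Their median was -0.70 on the log2 scale, and without the term 0 passed. The ratio of their normalized reads to those of the 41 nuclear genes was 7.16, 6.78 and 5.65 in the VIM-AS1 libraries and 7.74, 15.2 and 13.2 in the control libraries. That ratio did not overlap between the groups, although control library 1 lay closer to the VIM-AS1 libraries than to the other controls. Within complexes III and V it did not overlap either. It overlapped in complex I, at 11.4, 10.7 and 9.96 against 11.4, 20.4 and 20.1, and in complex IV, at 17.4, 16.7 and 13.2 against 14.7, 35.5 and 30.0. In both of these control library 1 was the control that reached the VIM-AS1 range. All 13 mitochondrial genes passed as lower with the replicate block (26.6% of all genes called) and without control library 1 (21.6%). Without control library 2 there were 4 (18.4%), without VIM-AS1 library 1 4 (13.9%) and without VIM-AS1 library 2 3 (12.3%). Without both replicate 3 libraries 2 passed (5.31%), without control library 3 1 (2.98%) and without VIM-AS1 library 3 0 (1.37%), the last with 3 at an unadjusted p under 0.05 (limma). All of these replicate 3 omissions compare the same libraries 1 and 2 of each group.

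Only 4 of the 41 nuclear genes had groups that did not overlap, SDHC and ATP5F1A higher and COX6C and COX7B lower, against 19.8% of all tested genes (9.50% higher and 10.3% lower). When the recovered reads were scaled by library size in place of the deposited factors, the non-overlapping genes were SDHC, UQCRFS1 and ATP5F1B, higher, and COX4I1, lower, against 9.39% and 12.6% of all tested genes. That scaling moved the median of all tested genes to -0.08. SDHC was the gene on both lists. In same-numbered pairs of libraries 11 genes were higher in VIM-AS1 in all 3 pairs and 7 were lower in all 3. Of all tested genes 26.8% and 25.0% were, and of those with a mean of at least 100 44.9% and 22.1%, so the share of members that were higher lay near the first background and under the second. The 11 held SDHA, SDHC and SDHD of complex II, CYC1, UQCRC2 and UQCRFS1 of complex III, ATP5F1A, ATP5F1B and ATP5PB of complex V, and NDUFV2 and NDUFB3 of complex I. The 7 were COX4I1, COX6C and COX7B of complex IV, UQCRQ, NDUFS3, NDUFB5 and ATP5F1C.

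**Figure D4:**
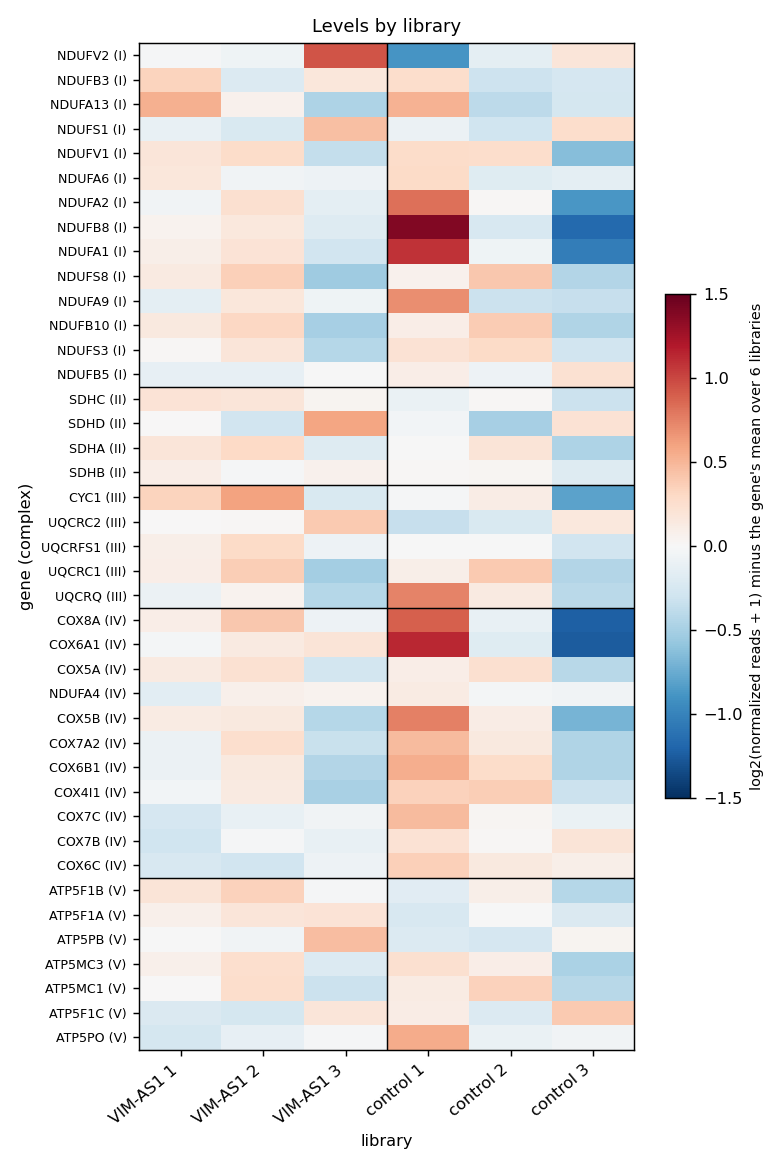
Level of each subunit gene (rows, complex in brackets) in each library (columns), as log2(normalized reads + 1) minus the gene's mean over the 6 libraries, red above and blue below that mean. Control library 1 is red and control library 3 blue for NDUFA1, NDUFB8, COX6A1 and COX8A, and the replicate 3 libraries of both groups are blue for most genes.

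The replicate 3 libraries moved the subunit genes more than the group did. The median coefficient of the replicate 3 term was -0.49 over the 41 genes, against -0.18 over the tested genes with a mean of at least 100 and -0.01 over all tested genes. It was negative for 32 of the 41. Library 3 was the lowest of both groups for 22 genes and the highest of both for 7 (NDUFS1, NDUFV2, NDUFB5, SDHD, UQCRC2, ATP5F1C and ATP5PB). For 31 genes this shift was larger than the group difference, with a median size of 0.54 against 0.19 on the log2 scale. It was larger for 60.0% of all tested genes, with median sizes of 0.52 against 0.35, and the sizes were 0.50 against 0.25 where the mean was 100 or more. CYC1 moved by -0.77, NDUFB8 by -1.02 and COX8A by -0.97 in the replicate 3 libraries, and SDHD and ATP5F1C by 0.61 and 0.43.

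GC content of the transcript moved with this shift. Across the 41 genes Spearman's rho between GC content and the replicate 3 coefficient was -0.76, and across 9756 genes with a mean of at least 100 it was -0.86. These are descriptions across genes of the same libraries, and genes are not independent replicates. Across the 41, rho between GC content and the group difference was 0.04. CYC1, with a fold change of 0.47, had a GC content of 61.8%, and COX6C, at -0.40, one of 42.1%. After a correction for GC content and length the fold changes with the replicate 3 term were 0.59 for CYC1 (limma adjusted p 0.000115) and -0.27 for COX6C (0.0277). Under that correction ATP5F1A had 0.17 (limma adjusted p 0.202).

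**Figure D5:**
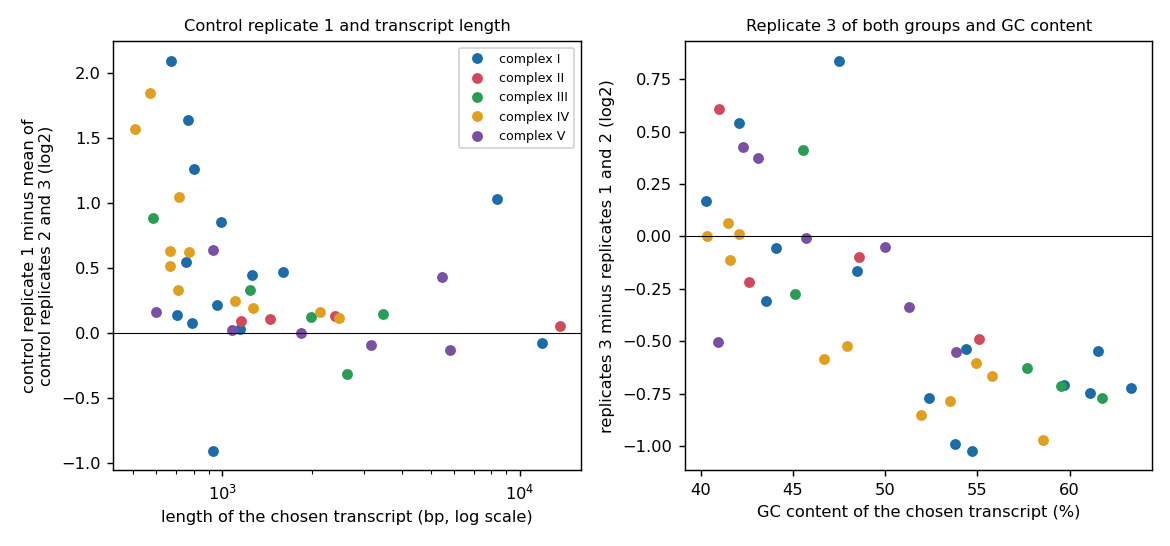
Left, log2 level in control replicate 1 minus the mean of control replicates 2 and 3 against the length of the chosen transcript (log axis), 1 point per subunit gene. Right, log2 shift of the replicate 3 libraries against GC content. Short transcripts reach 2.09 above the other controls, and most genes with a GC content above 50% lie below 0 in the replicate 3 libraries.

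Control library 1 held more of the short subunit transcripts. Among protein-coding genes with a mean of at least 100 normalized reads, which left out NDUFV2 and NDUFA13, 14 of the 41 had a transcript under 800 bases. For these 14 the log2 level in control library 1 minus the mean of control libraries 2 and 3 had a median of 0.63 and was positive in 14 of 14, reaching 2.09 for NDUFB8. Over all 228 such genes of that length class the median was 0.47. For 11 genes of 800 to 1500 bases the median was 0.22 (0.19 over all genes of the class), for 7 of 1500 to 3000 bases it was 0.12 (0.06), and for 7 longer ones 0.05 (-0.07). In VIM-AS1 library 1 the same difference for the short genes had a median of 0.09. COX6A1 had 2621, 1054 and 505 normalized reads in control libraries 1 to 3 and 1167, 1309.9 and 1372 in the VIM-AS1 libraries, and COX8A had 3989, 1979 and 915 and 2297, 2818 and 2025. For both genes control library 1 was the highest and control library 3 the lowest of the 6 libraries.

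Without control library 1 more of the subunit genes passed, at a share near that of all genes. With the replicate 3 term 9 of the 41 then passed, against 2 with all libraries, where 21.6% of all genes passed (limma). The 8 that rose were NDUFA1, NDUFA2, NDUFB8, SDHD, CYC1, COX6A1, COX8A and ATP5PB, and COX6C fell. Of these 9, NDUFA1, NDUFB8, COX6A1 and COX8A had a transcript under 800 bases, and the others were longer. The estimate of COX8A went from 0.29 to 0.70 (limma adjusted p 2.84e-05), that of COX6A1 from 0.20 to 0.75 (0.000126) and that of NDUFB8 from 0.01 to 0.61 (0.00357). CYC1 stayed at 0.45 and COX6C at -0.30. Without control library 2 there were 8 calls (18.4% of all genes), SDHC, CYC1, UQCRC2, ATP5F1A and ATP5F1B higher and UQCRQ, COX6C and COX7B lower. Without VIM-AS1 library 1 the sole call was CYC1 (13.9% of all genes). There were 0 calls without VIM-AS1 library 2 (12.3% of all genes), VIM-AS1 library 3 (1.37%) or control library 3 (2.98%), with 7, 5 and 6 subunit genes at an unadjusted p under 0.05 (limma). The omissions of VIM-AS1 library 3 and of control library 3 rest on the same libraries 1 and 2 of each group. The part of transcript length and GC content in these differences was not tested.

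Levels per kilobase of the chosen transcript ranked the members alike in both groups (Spearman's rho 0.99 across 41 genes). Ranks between genes depend on the transcript chosen. In the control, rho between these levels and levels per kilobase of all merged exons of a gene was 0.94. ATP5F1B was the highest of complex V at 12445 ± 2220.0 normalized reads per kilobase in the control and 15709 ± 1952 with VIM-AS1 (mean ± SD, n = 3). ATP5PO, the lowest of that complex, had 659.5 ± 178 and 539 ± 46.3. In complex IV the highest level was that of COX4I1, 16788 ± 4159 in the control and 13885 ± 2918 with VIM-AS1, and the lowest that of COX7B, 1037 ± 78.2 and 851 ± 82. The order of COX4I1 and ATP5F1B was reversed between the groups, but in each group their spreads overlapped. Per kilobase of merged exons ATP5F1B had 9856 in the control and COX4I1 only 2480. By that measure COX5B was the highest of complex IV at 5352 and COX6C the lowest at 701.

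Complex III levels per kilobase of the chosen transcript ran from UQCRFS1 at 559 ± 60.7 to UQCRQ at 9397 ± 3723 in the control. Per kilobase of merged exons they ran from UQCRC2 at 313 to UQCRC1 at 4293. In complex II SDHA had 4806 ± 1051 and SDHC 129 ± 15.2 in the control, the latter spread over a transcript model of 13566 bases. In complex I NDUFS8 had 6763 ± 1920.0 and NDUFV2 23.6 ± 8.57 in the control. Per kilobase of merged exons NDUFS8 had 1183, and NDUFB10 was the highest of complex I at 4056. NDUFV2 and NDUFA13 were the members with a mean under 100 normalized reads, far under subunits that are present in equal number in the complex. Their counting is uncertain: 28.4% of the exon bases of NDUFV2 and 21.0% of those of NDUFA13 overlap another annotated gene, and the pseudogene NDUFV2P1 held 205 reads against 168 for NDUFV2.

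Other members share reads or bases with other genes as well. In GENCODE 29 16 of the 41 had at least 10% of their exon bases overlapped by another gene, and 8 had at least 20%, NDUFB8 (48.5%), NDUFA1 (44.5%) and COX8A (34.5%) the most. Without a stated strand setting, reads from overlapping genes on opposite strands cannot be told apart. Pseudogenes named after 25 of the members are annotated, 14 members had at least 1 of them in the files, and their reads passed 5% of the member's own for NDUFV2 and COX6A1. COX6A1P2 held 781 reads against 8020 for COX6A1, so the values of COX6A1 are uncertain too.

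The remaining nuclear subunits were counted in the same way. Of 38 tested, 0 rose and 1 fell with the replicate 3 term, NDUFB1 of complex I at -0.39 ± 0.14 (limma adjusted p 0.0469), where 19.4% of all genes were called, and their median fold change was -0.04. With the replicate block 2 rose and 5 fell (26.6% of all genes called), and without control library 1 7 rose and 1 fell (limma, 21.6% called). NDUFA4L2, a hypoxia-responsive relative of NDUFA4, was the isoform that fell among 3 tested. It had 637, 746 and 429 normalized reads with VIM-AS1 and 1177, 1395 and 764 in the control, without overlap, and a fold change of -0.87 ± 0.11 (limma adjusted p 2.82e-05 with the term and 0.222 without it).

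Assembly factors build the complexes without staying in them. Of 51 tested, 8 rose and 1 fell with the term (limma; 19.4% of all genes called). UQCC3, needed for cytochrome b in complex III, had 574, 596 and 388 normalized reads against 282, 194 and 126, and a fold change of 1.41 ± 0.15 (limma adjusted p 2.96e-06; 0.103 without the term). NDUFAF5, a complex I factor, rose by 0.59 and BCS1L, which inserts the Rieske protein, by 0.58. SDHAF1, which helps to build SDHB, fell by 0.47 on the log2 scale. Without both replicate 3 libraries UQCC3 and BCS1L rose and SDHAF1 fell, 3 of 51, and without VIM-AS1 library 3 or control library 3 UQCC3 alone passed (limma). Of all genes 5.31%, 1.37% and 2.98% passed under these omissions.

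Among 11 genes of the mobile electron carriers, cytochrome c and ubiquinone synthesis, 4 rose and 0 fell with the term (limma, 19.4% of all genes called). All 11 had a mean of at least 100 normalized reads. Of the 9758 tested genes with such a mean 32.0% were called, 2243 of them as higher. CYCS, cytochrome c, had 2066, 1935 and 2871 normalized reads with VIM-AS1 and 1550.1, 1181 and 1632 in the control, without overlap, and rose by 0.65 ± 0.11 (limma adjusted p 0.0005). COQ3 and PDSS1, enzymes of ubiquinone synthesis, rose by 0.78 and 0.66. CYCS is the partner of CYC1, whose fold change was 0.47. Without VIM-AS1 library 3, control library 3 or both replicate 3 libraries 0 of the 11 passed, with 4 at an unadjusted p under 0.05 each time (limma). Of all genes 1.37%, 2.98% and 5.31% passed under these omissions.

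Of 13 citric acid cycle genes, 6 rose and 0 fell with the term (limma, 19.4% of all genes called). All 13 had a mean of at least 100 normalized reads. Of the 9758 tested genes with such a mean 32.0% were called, 2243 of them as higher. IDH3A, the catalytic subunit of the NAD-dependent isocitrate dehydrogenase, rose by 0.91, SUCLG2, a subunit of succinyl-CoA synthetase, by 0.53 and OGDH, of the oxoglutarate dehydrogenase complex, by 0.47. Without both replicate 3 libraries IDH3A alone passed, and without VIM-AS1 library 3 or control library 3 0 of the 13 did, with 3 at an unadjusted p under 0.05 (limma). Of all genes 5.31%, 1.37% and 2.98% passed under these omissions. Of 9 regulators, 3 rose and 0 fell with the term (limma, 19.4% of all genes called). These were NRF1, by 0.79, the coactivator PPARGC1B, by 0.62, and GABPB1, a subunit of GABP, by 0.62. PPARGC1A, the related coactivator, had 13.7, 23.5 and 40.9 normalized reads against 36.5, 31.8 and 71.1 and an estimate of -0.85 ± 0.31 (limma adjusted p 0.0598). With the replicate block PPARGC1A passed as lower, 1 of 9, while 4 passed as higher (limma, 26.6% of all genes called). NRF1 had 520.5, 538 and 400.1 normalized reads with VIM-AS1 and 319, 309 and 220.4 in the control, without overlap (limma adjusted p 0.000131 with the term and 0.195 without it). The 3 subunit genes with an NRF1 word in the promoter, SDHD, ATP5F1C and ATP5PO, had fold changes of 0.21, -0.20 and -0.26. Without both replicate 3 libraries NRF1 was the regulator that passed (5.31% of all genes did). Without VIM-AS1 library 3 it was 0 of 9, with 3 at an unadjusted p under 0.05 (limma, 1.37% of all genes passed).

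Markers of other cell types were listed for 10 of 12 genes. Of the 8 tested, COL1A1, DCN and TP63 fell with the term and VWF rose (limma), where 19.4% of all genes were called. Without the term 0 passed, and the median level of the 8 was 16.6 normalized reads. KRT5 had at most 4.21 normalized reads, and COL1A2 and PECAM1 were at 0 in 5 of 6 libraries. DCN had 90.6, 91.1 and 119 normalized reads with VIM-AS1 and 208, 208 and 342 in the control. Their part in the results above was not tested.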

How the data were processed

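RNA was extracted with TRIzol and 1.3 µg of it made into libraries with the NEBNext Ultra RNA kit, per the labels' protocols. The kit is not named there as one that marks strand. Reads were handled with fastp, HISAT2, featureCounts and hg38, per the submitters' processing notes. For versions, annotation, strand setting and normalization, details are not given in the sources used here. Values as deposited are a signal per gene: in every library 100% of them were whole multiples of 1 step within 0.01 read (largest distance 6.57e-05), so reads were recovered. The authors' factors, 0.819 to 1.27, equalled the size factors DESeq2 computes from those reads. Values are called normalized reads. No replicate pair agreed within sampling noise (chi-square per degree of freedom 7.14 to 69.2).

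Groups came from the labels, 3 libraries each. Genes with a mean of at least 1 normalized read (20927 genes) were tested with limma 3.58.1 (trend, empirical Bayes, two-sided) in R 4.3.3 on log2(value + 1), which understates changes of low genes, with Benjamini-Hochberg adjustment over all genes and a threshold of 0.05. Fits were made without and with an indicator of replicate 3. Where a library shows 0 reads of a gene, up to 3 reads remain possible, a limit that covers counting error only. Same-numbered libraries deviated together from their group means (Pearson's r 0.32, 0.72 and 0.84 over 13175 genes). VIM-AS1 library 1 correlated more with control library 2 (0.42), and control library 1 slightly more with VIM-AS1 library 2 (0.33). Deviations within a group sum to 0, so a shift shared by the replicate 3 libraries also makes libraries 1 and 2 correlate. These values thus cannot show that libraries 1 and 2 are paired by number. The replicate block and the same-numbered comparisons take the numbers as pairs, which no label states. The fitting code was tested on simulated data. Results were recomputed with edgeR 4.0.16, DESeq2 1.42.0 and voom on recovered reads, 3 other scalings, 2 other filters, a pseudocount of 0.1, a GC and length correction (splines of 5 degrees of freedom), a replicate block and each library left out. Leaving out both replicate 3 libraries was added after seeing the data.

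Levels per kilobase, GC content and length use 1 coding transcript per gene of GENCODE 29 (lowest APPRIS level, then support level, RefSeq pairing and name number). The members and lists were chosen with earlier results of these data known. Named with values were members past the threshold in either fit, those with the highest and the lowest estimate and level in each complex, those whose interval left out 0 and, from the other lists, at most 3 called genes in each direction. COX5A, COX5B, NDUFA1, NDUFB8, COX6A1 and further members were named outside that rule to account for every member.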

Additional observations from a re-analysis of the deposited data

How the results depend on the processing

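Without the replicate 3 term 0 subunit genes passed, and this held under every alternative except the GC and length correction, with 1 (11.2% of all genes passed), and the replicate block below. The median fold change of the 41 genes, 0.02, ran from -0.20 (without control library 3) to 0.18 (without control library 1) in that fit and from -0.12 to 0.14 with the term. With the term 2 passed; 5 passed under library size scaling, 6 under library size scaling without mitochondrially encoded genes, 6 with at least 10 reads in every library of 1 group (29.9% of all genes), 8 with DESeq2 (16.7%), 6 with voom (20%), 4 under the GC and length correction (21.3%) and 0 without both replicate 3 libraries. Leaving out 1 library gave 0 to 9. SDHB reversed to -0.048 in both fits under library size scaling without mitochondrially encoded genes. COX8A reversed to -0.14 without both replicate 3 libraries, where the fits without and with the term are the same fit. Leaving out 1 library gave COX8A -0.25 to 0.81 without the term and -0.14 to 0.70 with it. Of 608 values of 16 named genes under alternatives, 529 kept direction and side of the threshold, 63 passed anew and 9 no longer passed. The replicate block, alone or with the correction, and the omission of both replicate 3 libraries are single fits. They were entered for both the fit without and the fit with the term, so the 608 values are not all separate checks. With the term, calls ran from 0 to 9 for the other nuclear subunits, 1 to 18 for assembly factors, 0 to 4 for electron carriers, 0 to 7 for the citric acid cycle, 0 to 5 for regulators and 0 to 13 for mitochondrially encoded genes. The cause of these shifts was not tested.

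With the replicate block 10 subunit genes passed, and 11 with the replicate block and the GC and length correction together (9 higher and 2 lower, where 26.5% of all genes passed). Over all genes the block called 5571, against 5 without the replicate 3 term and 4065 with it. The fewest reads were those of NDUFV2, as few as 14 in a library.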
